A study of Mus musculus with 32 samples.

Results

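Adamts13 is 1 of the 19204 gene names measured in a series of mouse livers, and it was followed here through every array of that series. It was chosen by its measured level, which was high in the livers of E2f1 knockout mice on saline and close to background in wild-type livers, so the levels on the saline arrays are a description and carry no test. The mice were wild type for E2f1 (labelled E2F1+/+, strain B6x126 F2 in the strain label and B6129 in the titles) or homozygous knockouts (E2F1-/-, with a strain label that joins B6;129 to that genotype). They received saline or LPS (lipopolysaccharide, from the cell wall of Gram-negative bacteria) by a systemic route, in a study of the part E2F1 plays in the innate response to LPS. Each genotype had 6 mice in the saline group, all labelled 20 h, 4 in the group taken 6 h after LPS and 6 in that taken at 20 h, with 1 array per mouse. Livers at 6 h of LPS are thus set against saline livers of a later time. Genotype and labelled strain change together in every group, so the knockout and any other difference between the strains cannot be told apart. Sex, age, dose and the deleted part of E2f1 are not given.

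ADAMTS13 is the plasma metalloprotease that cuts von Willebrand factor (VWF), the large adhesive protein that carries platelets to injured vessel walls. Without it, ultra-large VWF multimers persist and bind platelets, and its severe deficiency in humans causes thrombotic thrombocytopenic purpura. Hepatic stellate cells, the retinoid-storing pericytes of the liver sinusoids, are its main source in the liver, while VWF itself comes from endothelium and megakaryocytes. C57BL/6 mice are known to carry a retrotransposon in an intron of Adamts13 that gives a shortened transcript, whereas 129 strains make the full-length one. The alleles of these mice were not measured here, so whether they differed between groups, or between mice of the same group, is not known.

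Every value of Adamts13 came from 1 spot of 1 probe, shown because no other probe on the array carries its name. The array design places it on mm9 at chr2:26862185-26862244 and, in the RefSeq transcript NM_001001322, from base 3891. It is 60 bases long with a GC content of 50%. Whether the shortened transcript holds these bases was not looked up here, so undetected means only that this stretch gave no signal well above background. RefSeq lists the gene on the plus strand of GRCm38.p6 at chr2:26973361-27009625, a span of 36265 bases with 4 curated and 4 model transcripts. The promoter is shown because E2F1 is a transcription factor and its gene is the one deleted. It covers chr2:26973166-26973465 on the plus strand of GRCm38.p6, from RefSeq, with the 50 bases after the transcription start in capitals. The start that RefSeq's promoter uses is base 26973416, which lies 55 bases after the first base of the gene span.
Adamts13 array probe: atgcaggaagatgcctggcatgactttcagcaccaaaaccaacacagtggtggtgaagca
Adamts13 promoter: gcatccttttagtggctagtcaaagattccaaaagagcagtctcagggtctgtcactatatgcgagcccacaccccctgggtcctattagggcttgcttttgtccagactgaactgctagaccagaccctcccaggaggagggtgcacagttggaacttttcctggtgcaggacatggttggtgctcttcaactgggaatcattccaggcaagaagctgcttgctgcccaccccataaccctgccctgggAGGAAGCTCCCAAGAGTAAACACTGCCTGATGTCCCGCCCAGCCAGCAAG
These letters were searched on both strands for an E2F motif in the forms TTTCCCGC, TTTCGCGC, TTTGCCGC and TTTGGCGC. The promoter held 0 matches, while 744 of 32851 RefSeq promoters of the same length, or 2.26%, held at least 1.

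The arrays were 1-colour Agilent mouse arrays, and a level is given as the log2 of the processed signal minus the log2 of the 75th percentile of that array, so 0 is the 75th percentile. That percentile lay between 282 and 1138 signal units. By the scanner software's own test, between 20203 and 28891 of an array's spots were well above background. The number of arrays limits the precision. The tissue is labelled liver, although the extraction protocol names lung. The mean level of 7 measured hepatocyte markers, all well above background on every array, lay between 5.27 and 7.25, whereas that of 3 measured lung epithelium markers lay between −5.49 and −1.13, and Sftpc, Sftpb and Ager did not pass the filter on dim probes. E2f1 ranged from −5.05 to −2.30 in wild type and −4.55 to −2.40 in knockouts on saline, from −4.28 to −3.27 and −3.01 to −1.65 at 6 h, and from −6.21 to −4.03 (5 arrays) and −4.04 to −0.23 at 20 h of LPS. It was not lower in the groups labelled knockout, and at 20 h it was higher by 3.51 ± 0.58 (SE, limma adjusted p = 0.00361), where 2 of the 5 wild-type arrays stood well above background, so that size is not exact. Whether its probe lies in the deleted part is not known, so it does not check the genotype labels, which are used as given. A pair of libraries stood apart from their labels. The library labelled KO saline replicate 1 had a mean neutrophil marker level of 2.76, against −3.58 to −2.93 in the other 5 of its group, and that labelled KO LPS 6 h replicate 1 had −1.62, against 2.27 to 3.12 in the other 3. Adamts13 differences and list counts that rest on them are given with and without both, and values of other single genes use every array.

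On saline, Adamts13 was detected in every knockout liver and in no wild-type liver. The levels of the 6 wild-type saline arrays were −6.04, −5.79, −7.94, −7.78, −6.54 and −7.92, with a mean of −7.00 ± 0.99 (SD, n = 6). None of the 6 spots stood well above background, and all 6 hold a value that the scanner software put in place of a low signal, so these levels have no order among themselves. Processed signals on them lay between 2.71 and 8.19 units. In the 6 knockout saline arrays the levels were −2.57, −1.37, −2.01, −1.60, −1.999 and −2.05, with a mean of −1.93 ± 0.41 (SD, n = 6) and signals of 47.5 to 278 units. All 6 spots stood well above background, and the lowest knockout array lay above the highest wild-type array. The lowest level that counted as well above background on the wild-type saline arrays had a mean of −4.88. Against it, Adamts13 was 7.69-fold higher in the knockout saline livers. That level is the lowest over all probes and not a strict limit for this probe. On wild-type LPS 20 h replicate 2, Adamts13 read −4.81, above that array's −4.87, and was not well above background. The fitted difference of 5.07 ± 0.53 (SE) on the log2 scale rests on the substituted values, and it was 5.20 without the pair of libraries that stand apart. Both groups were scanned on 2 of the 3 dates, and within these it was 5.85 and 4.44. These arrays chose the gene, so no test is given.

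**Figure D1:**
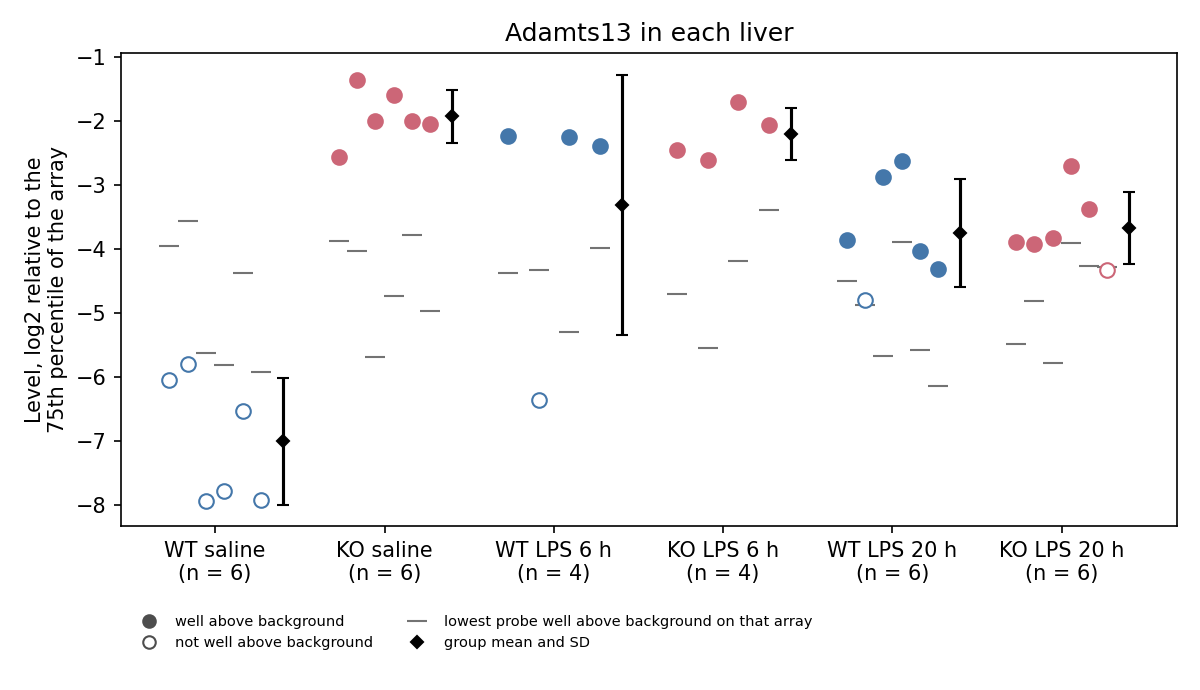
Level of Adamts13 (log2, with the array's 75th percentile at 0) on each of the 32 arrays, by group; filled points stood well above background, open points did not, short lines mark the lowest level well above background on that array, and diamonds with bars give the group mean and SD. All 6 wild-type saline points are open and lie at or below −5.79, while 23 of the 32 arrays have a filled point.

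Most wild-type livers were not near background once LPS had been given. At 6 h the 4 wild-type arrays read −2.24, −6.36, −2.25 and −2.40, with a mean of −3.31 ± 2.03 (SD, n = 4). Replicates 1, 3 and 4 lay within the range of the knockout saline arrays only through the library labelled KO saline replicate 1, at −2.57, which stands apart. The other knockout saline arrays, from −2.05 to −1.37, lay above replicates 1, 3 and 4. Replicate 2 of wild type at 6 h was alone at a substituted value like those of the wild-type saline arrays. At 20 h the 6 wild-type arrays read −3.87, −4.81, −2.88, −2.63, −4.03 and −4.32, with a mean of −3.75 ± 0.84 (SD, n = 6), and replicate 2 was the one not well above background. Thus 3 of 4 and 5 of 6 wild-type LPS arrays detected the gene, so the description of wild type as near background holds for saline and goes against the data after LPS. Against the mean of −4.88 for the wild-type saline arrays, Adamts13 was 2.96-fold higher at 6 h of LPS and 2.18-fold higher at 20 h. Here too that level is not a strict limit. Without replicate 2 the value at 6 h was 5.98-fold. The fitted differences, which rest on substituted values, were 3.69 ± 0.59 and 3.25 ± 0.53 (SE). At 20 h no wild-type LPS array overlapped the saline arrays, and at 6 h replicate 2 did.

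In the knockout livers Adamts13 was high on saline and at 6 h and lower at 20 h of LPS. The 4 knockout arrays at 6 h read −2.45, −2.62, −1.70 and −2.06, with a mean of −2.21 ± 0.41 (SD, n = 4), all well above background and overlapping the knockout saline arrays. The difference from knockout saline was −0.28 ± 0.59 (SE), or −0.32 without the libraries that stand apart. At 20 h the 6 knockout arrays read −3.90, −3.92, −3.84, −2.71, −3.37 and −4.32, with a mean of −3.68 ± 0.56 (SD, n = 6), and replicate 6 was not well above background. Every one of the 6 lay below all 6 knockout saline arrays, and the difference was −1.74 ± 0.53 (SE), or −1.87 without the libraries that stand apart. The saline arrays belong to the choice of the gene, so these are descriptions. In bulk liver, fewer cells of a type and less RNA per cell cannot be told apart.

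The gene was chosen by its level in knockout livers on saline and in wild-type livers, and the knockout LPS arrays were not named. That choice was made with earlier results of these data known, and the test here carries that limit. The difference between 20 and 6 h in knockouts was tested. It came to −1.47 ± 0.59 (SE, 95% interval −2.68 to −0.26), with every array at 20 h below every array at 6 h. The exact two-sided permutation test over the 10 arrays gave p = 0.00952, where the smallest p possible is 0.00476. Over all genes the call was missed, with a limma adjusted p of 0.0919 and an unadjusted p of 0.0192, in a comparison where 15.6% of all genes were called (7.24% higher and 8.34% lower). The SE, interval and limma p rest on 1 spread for all groups, with a residual SD of 0.957. The SDs of the knockout groups compared were 0.41 at 6 h and 0.56 at 20 h. Wild-type SDs were larger, at 0.99 on saline (substituted values), 2.03 at 6 h and 0.84 at 20 h. Without the libraries that stand apart the difference was −1.55 and the adjusted p was 0.0955. With the normexp background correction (offset 50) the adjusted p was 0.0298, and with the deposited processed values it was 0.0302. With scan date as a block the difference was −1.299 and the adjusted p was 0.0740.

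No difference between knockout and wild type was called after LPS. The gene was chosen as close to background in wild-type livers, with no treatment named. The wild-type LPS arrays may thus have played a part in that choice, and both tests below carry that limit. At 6 h the knockout arrays were higher by 1.103 ± 0.65 (SE, 95% interval −0.22 to 2.43), with a limma adjusted p of 0.591 where 1.26% of all genes were called. The exact two-sided permutation test gave p = 0.429, with 0.0286 the smallest possible. The difference was 0.09 without wild-type replicate 2, and within the 3 scan dates it was −0.36, 0.52 and 1.84. These rest on very few arrays. Date 1 sets wild-type replicate 3 against knockout replicate 2, and date 3 sets wild-type replicates 1 and 2 against knockout replicate 1. Without the library labelled KO LPS 6 h replicate 1 (and its saline counterpart) the difference was 1.19, with an adjusted p of 0.521. At 20 h the difference was 0.08 ± 0.53 (SE, 95% interval −1.01 to 1.16), with a limma adjusted p of 1.00 where 0.323% of all genes were called. There the exact permutation test gave p = 0.855, with 0.00216 the smallest possible, and the values within the 3 scan dates were −0.13, 0.21 and 0.68. The intervals are wide at both times and do not show that the genotypes were alike. The order of the group means was knockout saline, knockout 6 h, wild type 6 h, knockout 20 h, wild type 20 h and wild type saline. Each group overlapped its neighbour in that order except for the last pair. Wild type at 6 h overlapped knockout 20 h only through its replicate 2, at the substituted −6.36. Its other arrays, from −2.40 to −2.24, lay above every knockout array at 20 h, of which the highest read −2.71.

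**Figure D2:**
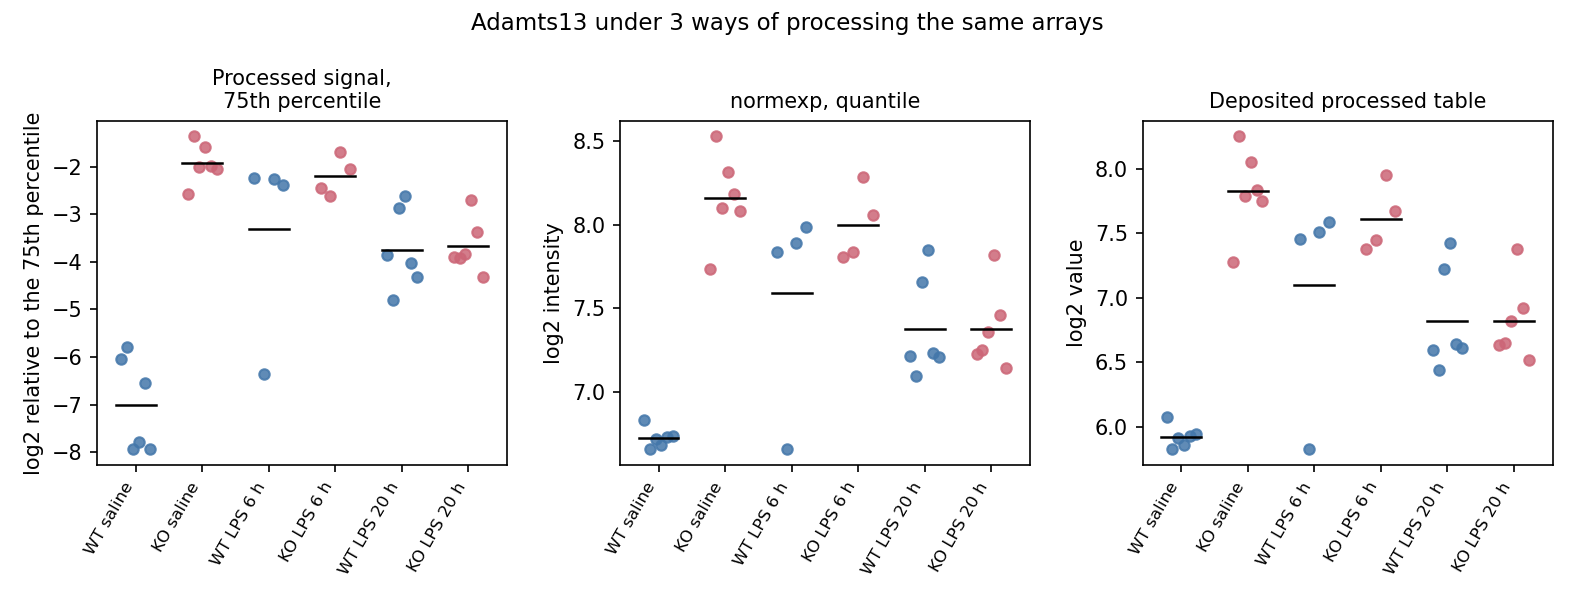
Adamts13 on the 32 arrays under 3 ways of processing, each on its own log2 scale: processed signal against the 75th percentile, normexp background correction with quantile normalization, and the deposited processed table; points are arrays and lines group means. The wild-type saline group is lowest and the knockout saline group highest in each panel, and the gap between their means narrows from 5.07 to 1.43 and 1.90.

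The difference on saline kept its direction under other background handling, with a smaller size. The normexp correction added an offset of 50 to the signals, and the part of that offset in the smaller size was not tested. After normexp correction the group means were 6.73 in wild type and 8.16 in knockout livers on saline, 7.59 and 7.998 at 6 h, and 7.38 and 7.38 at 20 h. In the deposited processed table they were 5.93 and 7.82, then 7.10 and 7.61, then 6.82 and 6.82. The wild-type LPS 6 h replicate 2 stayed with the wild-type saline arrays on all 3 scales. Its mean stellate cell marker level of 0.26 was the lowest of the 4 arrays (the others 0.46 to 0.84), and its endothelial marker level of −0.19 was also the lowest (the others 0.31 to 0.44). Its neutrophil marker level of 1.23 lay within the range of the other 3, which was 0.76 to 1.66, and its hepatocyte level of 7.14 also lay within theirs. Its Kupffer cell level of 2.34, platelet level of −1.89 and lung level of −2.02 were the highest of the 4 arrays. Knockout LPS 6 h replicate 2 had a lower stellate level, −0.20, and a detected Adamts13 level of −2.62. The part of these values in the low Adamts13 reading of wild-type replicate 2 was not tested.

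The 12 nearest measured genes did not share the difference on saline. Those before the probe were Rexo4, Gm711, Surf4, Surf2, Surf1 and Rpl7a, and those after it 5930434B04Rik, Slc2a6, 1110002H13Rik, Adamtsl2, Dbh and Sardh. None of the 12 was called in any comparison of knockout with wild type. The closest, 5930434B04Rik at 14.1 kb, differed by 0.02 on saline, and Slc2a6, a glucose transporter family member at 14.96 kb, by 0.88 ± 0.82 (SE, adjusted p = 0.966). Of the 104 genes measured within 2 Mb, 0 were called on saline, where 0.333% of all genes were, and 7 had an unadjusted p under 0.05. Their median difference was −0.14, against −0.01 over all genes. At 6 h of LPS 1 of 104 was called, the tubulin gene Tubb2c, and at 20 h 0, against 1.26% and 0.323% of all genes. Unadjusted p was under 0.05 in 18 and 7. How many of all genes had such an unadjusted p is not given, here or for the lists below, so these numbers have no background. Without the libraries that stand apart the called counts were 0, 2 and 1. Of all genes 0.354%, 1.34% and 0.521% were then called.

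**Figure D3:**
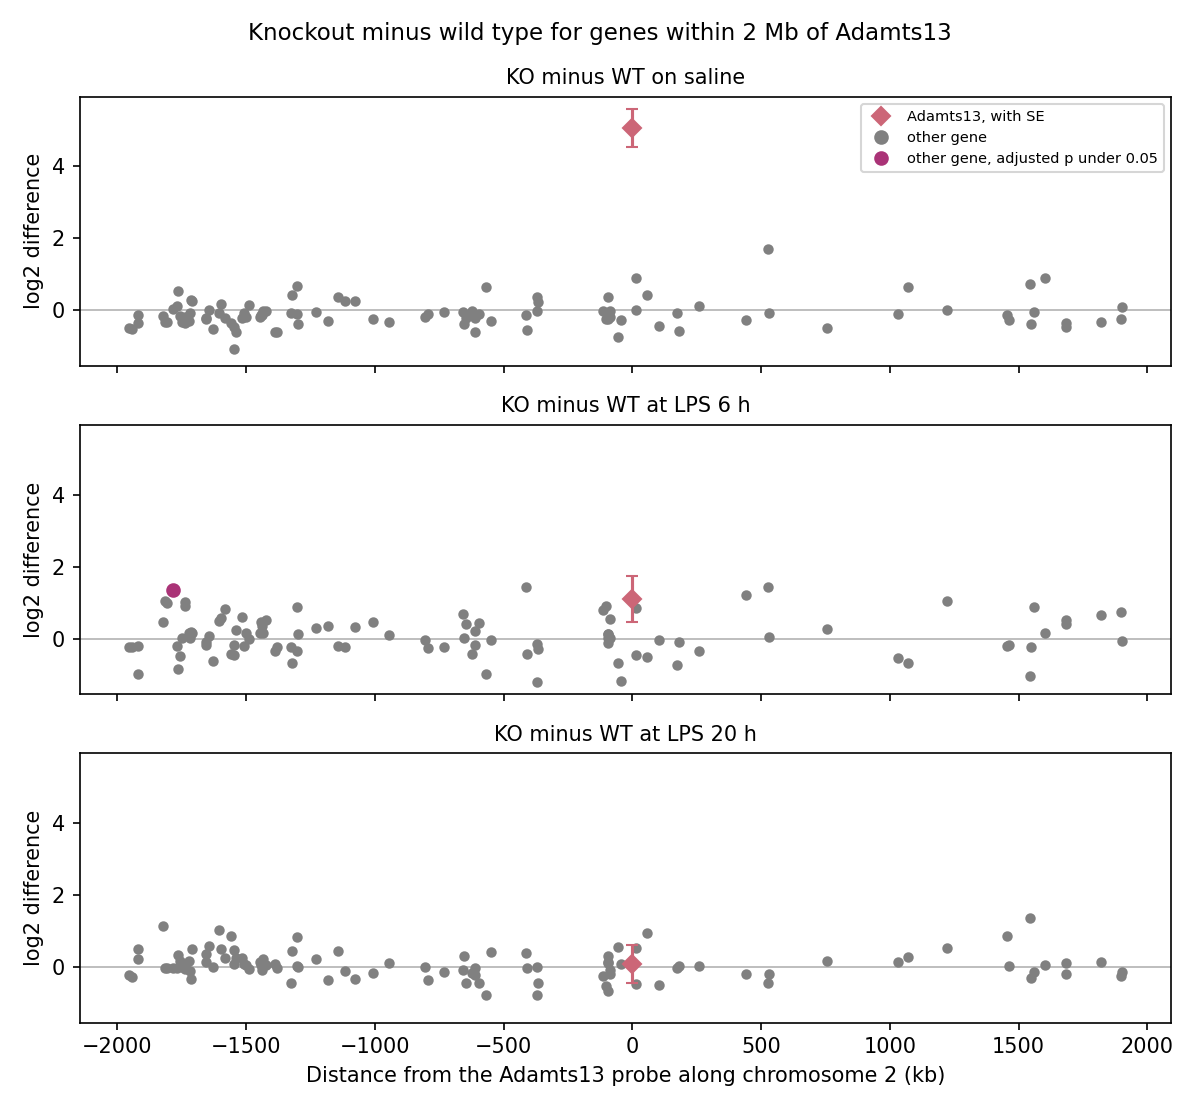
Knockout minus wild type (log2) against distance along chromosome 2 from the Adamts13 probe (kb) for the 104 genes measured within 2 Mb, on saline and at 6 h and 20 h of LPS; the diamond is Adamts13 with its SE. On saline Adamts13 stands at 5.07 with every neighbour below 2, and 1 neighbour passed the test, at 6 h.

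VWF, the substrate of ADAMTS13, did not differ by the test between genotypes and fell at 20 h of LPS in both. Vwf ranged from 0.78 to 1.35 (median 0.97) in wild type and from 1.06 to 2.01 (median 1.55) in knockouts on saline, and the difference was 0.51 ± 0.24 (SE, adjusted p = 0.744). At 20 h of LPS it ranged from −0.94 to 0.54 in wild type and from −0.36 to 1.35 in knockouts. All 6 wild-type arrays at 20 h lay below all 6 on saline, while the knockout groups overlapped. The changes from saline were −1.07 ± 0.24 (SE, adjusted p = 0.00103) in wild type and −1.06 ± 0.24 (SE, adjusted p = 0.00187) in knockouts. F8, which encodes the coagulation factor that VWF carries in plasma, fell by 2.69 and by 2.17 on the log2 scale in the same comparisons (adjusted p = 8.8e-07 and 4.04e-05). Plg, the precursor of plasmin, fell by 0.69 at 20 h in wild type (adjusted p = 0.0052) and had −0.10 in knockouts (adjusted p = 0.733). Furin, the protease that removes the propeptides of VWF and ADAMTS13, fell by 0.68 at 6 h and by 0.76 at 20 h in wild type (adjusted p = 0.0326 and 0.0062). Its change in knockouts at 20 h was 0.07 (adjusted p = 0.853). Whether these genes responded differently in the 2 genotypes was not tested. Gp1ba, which encodes the platelet receptor for VWF, was well above background on 4 of 32 arrays only.

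Across the wider VWF and platelet adhesion list, no genotype difference was called, and with all arrays the share of members called after LPS was near that of all genes except at 20 h in wild type. Of 33 listed genes 31 were measured. Between genotypes limma called 0 of 31 on saline, at 6 h and at 20 h, with unadjusted p under 0.05 in 3, 1 and 5. Of all genes 0.333%, 1.26% and 0.323% were called, so 0 in a list of this length is near that share. In wild type 7 rose and 3 fell at 6 h, and 8 rose and 10 fell at 20 h, against 28.5% of all genes called at 6 h (12.5% higher, 16% lower) and 36.6% at 20 h (16.5% higher, 20.1% lower). In knockouts 1 rose at 6 h, and 4 rose and 5 fell at 20 h, against 2.61% of all genes at 6 h (1.58% higher, 1.03% lower) and 26.3% at 20 h (11.7% higher, 14.6% lower). These are 32.3% and 58.1% of the list in wild type and 3.23% and 29% in knockouts. Without the libraries that stand apart 8 rose and 2 fell at 6 h in knockouts, and 8 rose and 7 fell at 20 h, or 32.3% and 48.4% of the list, against 29.2% and 34.9% of all genes. The median change in wild type was 0.27 at 6 h and 0.01 at 20 h, against 0.01 and −0.02 over all genes. Selp, the adhesion receptor P-selectin of platelets and endothelium, rose by 5.49 ± 0.75 and Thbs1, thrombospondin 1, by 5.35 ± 0.97 in wild type at 6 h (SE, adjusted p = 8.63e-06 and 0.000144). The Thbs1 size is not exact, since 2 of 6 wild-type saline arrays stood well above background. At 20 h Clec4g, a lectin of sinusoidal endothelium, fell by 5.46 ± 0.59, and Asgr2, a subunit of the hepatocyte asialoglycoprotein receptor, fell by 1.95 ± 0.24 (adjusted p = 1.19e-07 and 5.5e-07).

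Other members of the ADAMTS and ADAMTS-like family, secreted metalloproteases and related matrix proteins, were not set apart by genotype on saline. Of 25 listed genes 21 were measured. On saline and at 20 h of LPS limma called 0 of 21 between genotypes, with unadjusted p under 0.05 in 2 at each. Of all genes 0.333% were called on saline, 1.26% at 6 h and 0.323% at 20 h, so 0 in a list of this length is near that share. At 6 h 1 was called, Adamts6, with a difference of −2.62 ± 0.56 (SE, adjusted p = 0.0153) that is not exact, since 1 of 4 knockout arrays stood well above background. The count was 0 without the libraries that stand apart. In wild type 7 rose and 2 fell at 6 h of LPS, and 5 rose and 4 fell at 20 h, or 42.9% of the family at each time, against 28.5% and 36.6% of all genes. The median changes were 0.52 and −0.06. The rises at 6 h included Adamts3, a procollagen N-propeptidase, by 3.70, and Adamts9 and Adamts6 by 3.58 and 3.12. Adamts3 and Adamts6 were each well above background on 1 of 6 wild-type saline arrays, so their sizes are not exact. At 20 h Adamts1 and Adamts4, both proteoglycan-cleaving enzymes, rose by 2.33 and 2.91, while Thsd4, an ADAMTS-like matrix protein, fell by 2.10 to a level at which 2 of 6 arrays stood well above background. In knockouts 1 rose at 6 h, and 3 rose and 5 fell at 20 h, or 4.76% and 38.1% of the family, against 2.61% and 26.3% of all genes. Without the libraries that stand apart 5 rose and 5 fell, then 5 rose and 6 fell, or 47.6% and 52.4%, against 29.2% and 34.9% of all genes.

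Markers of hepatic stellate cells, the source of ADAMTS13 in liver, did not differ by the test between genotypes on saline and mostly fell at 20 h of LPS. All 22 listed markers were measured. Between genotypes limma called 0 of 22 in each of the 3 comparisons, with unadjusted p under 0.05 in 0 on saline, 1 at 6 h and 3 at 20 h. Of all genes 0.333%, 1.26% and 0.323% were called, so 0 in a list of this length is near that share. The mean marker level ranged from 0.62 to 1.11 in wild type and from 0.34 to 1.24 in knockouts on saline, so these overlapped where Adamts13 did not. At 6 h it ranged from 0.26 to 0.84 and from −0.20 to 0.83, where 0.83 is the library that stands apart and the other 3 reached 0.37. At 20 h of LPS 13 of 22 fell and 2 rose in wild type, and 14 fell and 2 rose in knockouts, or 68.2% and 72.7% of the list, against 36.6% and 26.3% of all genes. Without the libraries that stand apart the knockout counts were again 14 and 2, against 34.9% of all genes. Median changes were −1.26 and −1.20, against −0.02 and −0.09 over all genes, and the mean level was −0.93 to 0.10 and −1.59 to 0.89. Reln, an extracellular matrix glycoprotein, fell by 1.60 in wild type and by 2.21 in knockouts, and the collectin gene Colec11 fell by 3.81 in wild type and fell by 3.74 in knockouts. Lrat, the retinol-esterifying enzyme that fills stellate lipid droplets, fell by 2.11 and by 2.59. Acta2, the smooth muscle actin of activated stellate cells, rose by 0.75 and 0.95, and the proteoglycan gene Dcn by 0.67 and 0.74. At 6 h 4 fell and 1 rose in wild type, 22.7% of the list against 28.5% of all genes, and 1 fell in knockouts, 4.55% against 2.61%. The knockout count was 7 without the libraries that stand apart, 31.8% against 29.2%. From 6 to 20 h in knockouts, where the Adamts13 levels did not overlap, 6 markers fell and 1 rose, 31.8% of the list against 15.6% of all genes. These markers moved with the Adamts13 level in knockouts at 20 h, and went down in wild type while its Adamts13 readings went from undetected to detected. Their part in the Adamts13 levels was not tested.

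**Figure D4:**
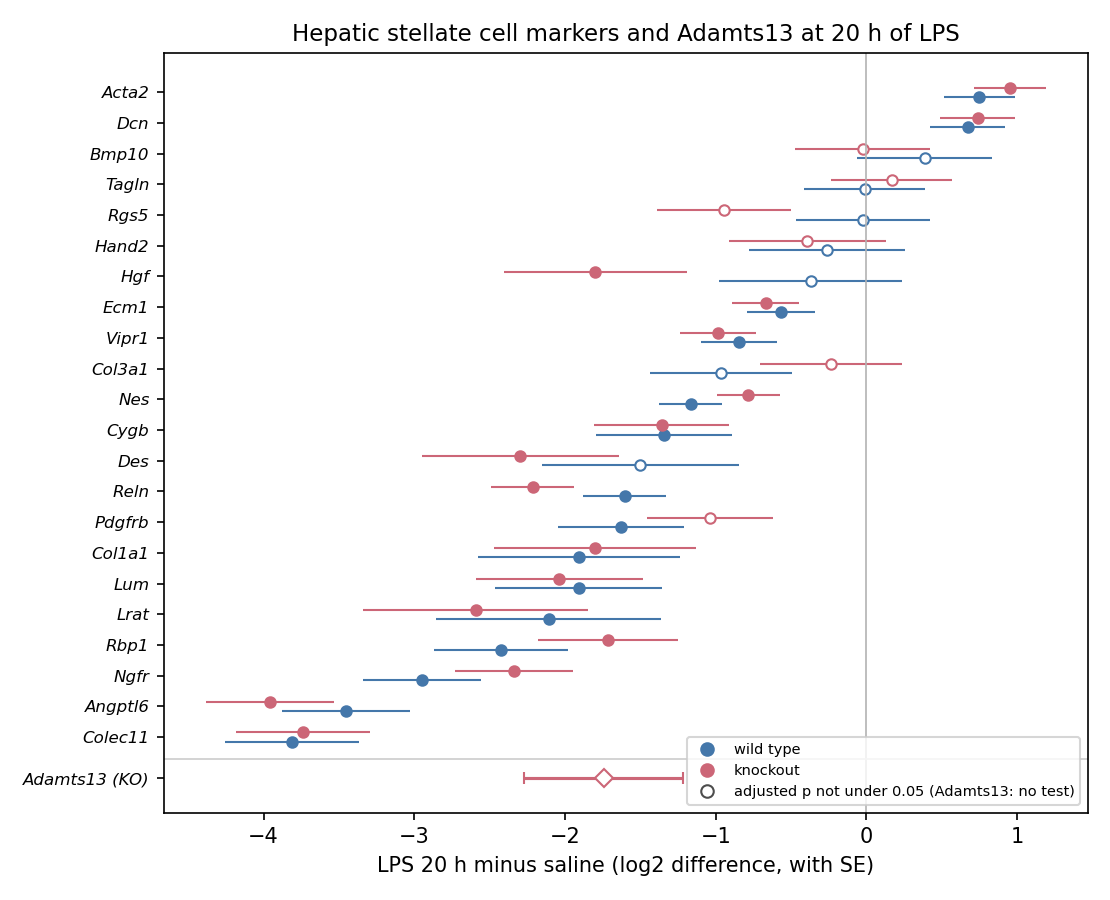
LPS 20 h minus saline (log2 difference with SE) for 22 hepatic stellate cell markers in wild type and knockout livers, with filled points at an adjusted p under 0.05, and for Adamts13 in knockouts (open, not tested). Most markers lie left of 0 in both genotypes, from −3.81 and −3.96 up to 0.75 and 0.95.

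No marker of any other cell type was called between genotypes. Endothelium had 0 of 15 called in each comparison, Kupffer cells 0 of 7, hepatocytes 0 of 7, platelets and megakaryocytes 0 of 6, neutrophils 0 of 6 and lung epithelium 0 of 3 by limma. Of all genes 0.333% were called on saline, 1.26% at 6 h and 0.323% at 20 h, so 0 in lists this short is near that share. Unadjusted p was under 0.05 for 1 endothelial marker in each of the 3 comparisons and 1 lung marker on saline and at 20 h. At 20 h it was also under 0.05 for 1 Kupffer cell and 1 hepatocyte marker. At 20 h of LPS in wild type 7 endothelial, 6 Kupffer cell and 4 hepatocyte markers fell, while 2, 1 and 1 rose, in a comparison where 20.1% of all genes fell and 16.5% rose. In knockouts 5, 5 and 4 fell, while 2, 1 and 0 rose, where 14.6% of all genes fell and 11.7% rose. Without the libraries that stand apart 7, 5 and 3 fell in knockouts, where 18.9% of all genes fell and 16% rose. Neutrophil markers rose in both genotypes at 20 h (5 of 6 each), as did 2 of 3 lung markers (Sftpa1 and Sftpd). Of 6 platelet markers 3 rose in wild type and 1 in knockouts, or 5 and 4 without the libraries that stand apart.

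Few genes followed the Adamts13 pattern closely. Over the 32 arrays, among 18872 genes with a value on each, the highest Pearson r was 0.74 and the median was 0.01. This likeness is a description over arrays that share scaling, groups and treatment, and any gene low in wild-type saline livers alone scores high. The 8 most like were C330011K17Rik (r = 0.74), Atp10d (0.70), TC1634701 (0.69), 9030425E11Rik (0.68), TC1666890 (0.68), Nsun7 (0.63), Syngr4 (0.63) and AK042636 (0.63). C330011K17Rik, named Zfp874a in RefSeq and a zinc finger gene, had a mean of −5.06 ± 0.88 (SD, n = 6) in wild type on saline and 0.21 ± 1.72 in knockouts. Of its 6 knockout saline arrays, 5 lay between 0.66 and 1.15 and the library labelled replicate 1 read −3.28. It read 0.32 in wild-type LPS 6 h replicate 2, the array at which Adamts13 was undetected, and −2.74 in replicate 1. Atp10d, which encodes a lipid-flipping membrane ATPase, had means of −3.33 ± 0.66 and −0.35 ± 1.16 (SD, n = 6) on saline and read −1.86 in that wild-type replicate 2. C57BL/6 mice are also known to carry a truncating variant of Atp10d, and the alleles of these mice were not measured here. Within groups, over deviations from the group means, the most like genes were Nacc1 (0.72), AK083642 (0.71), Pde6c (0.70), AK046358 (0.69), Akt1s1 (0.68) and AK046154 (0.67), none of them among the first 8. The Adamts13 deviations include those of the 6 substituted wild-type saline values and of the substituted wild-type LPS 6 h replicate 2. This second likeness thus rests in part on readings at background. Nnt, a mitochondrial transhydrogenase gene with a deletion in C57BL/6J mice, was well above background on all 12 saline arrays. Whether the Nnt probe lies in the deleted part was not looked up, so its signal does not give the allele of these mice. Nnt ranged from 2.57 to 3.73 in wild type and from 1.81 to 2.42 in knockouts, and the difference of −0.99 ± 0.36 was not called (SE, adjusted p = 0.467).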

How the data were processed

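Liver RNA of 32 mice was hybridised to 1-colour Agilent 4x44K mouse arrays, with 1 array per mouse and 6 groups taken from the labels. Each deposited scanner file gives spot intensity values; per the file headers, the authors' software (Feature Extraction 10.7.1.1) subtracted background and replaced low signals by a surrogate. A deposited table of the authors' processed log2 values covers 23916 probes (column medians 8.80 to 8.91, correlation with the scanner levels 0.980 to 0.991); its normalization and centring are not given in the sources used here.

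Outlier spots (84 to 232 per array) were left out, the 75th percentile of each array was subtracted in log2, and of 41174 probes the 28345 detected above background on 4 or more arrays stayed in; a gene name took its brightest probe, and 331 names lack a value on some array. One limma 3.58.1 fit (R 4.3.3, eBayes) on all arrays had a mean per group, two-sided, with Benjamini-Hochberg adjustment over 19204 names and a call at 0.05, and the fit was tested on simulated data. A fold against wild-type saline uses, per array of that group, the higher of the lowest level well above background and the probe's own level. It is not a strict lower bound.

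The gene, the lists and the alternatives were chosen with earlier results of these data known. Named genes were Adamts13, E2f1, Vwf, F8, Gp1ba, Plg, Furin and Nnt, up to 3 called list members per comparison by adjusted p (1 of them is not reported here), the 6 nearest genes on each side and the most correlated genes; stellate markers and Tubb2c were named after their values were seen. List members not measured after filtering were Gp5, Elane, Adamts17, Adamts19, Adamtsl1, Papln, Adgre1, Serpina1a, Sftpc, Sftpb and Ager. Alternatives covered background correction, normalization, filters, probe averaging, outlier spots, eBayes options, the groups fitted, slide, scan date and replicate blocks, values within scan dates, and left-out arrays. Same-numbered arrays did not deviate together throughout, so the replicate number was not taken to pair them.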

Additional observations from a re-analysis of the deposited data

Results flagged for a closer look

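The Adamts13 level of −6.36 in wild-type LPS 6 h replicate 2 lay far from the other 3 arrays of its group. The search for such a sample covered 48 combinations of a gene and a group, for Adamts13, E2f1, Vwf, F8, Gp1ba, Plg, Furin and Nnt. These combinations share arrays, and some hold substituted or background readings. The rate by chance of about 1 in 20 is for independent normal values and does not apply exactly. Of the 48, 6 held such a sample. The others were E2f1 at −4.03 in wild-type LPS 20 h replicate 2, F8 at −4.03 in wild-type LPS 20 h replicate 1 and at −0.97 in knockout LPS 20 h replicate 4, Gp1ba at −3.96 in wild-type saline replicate 1, and Plg at 6.50 in the library labelled KO LPS 6 h replicate 1. Gp1ba was well above background on 0 of 6 wild-type saline arrays, so its reading lies among background levels. E2f1 was well above background on 2 of 5 wild-type LPS 20 h arrays.

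At 20 h of LPS every wild-type array lay above the wild-type saline mean for Adamts13 and every knockout array lay below the knockout saline mean. The knockout change minus the wild-type change was −4.99 on the log2 scale, which was not tested, because the saline arrays chose the gene and the wild-type saline values are substituted.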

How the results depend on the processing

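All 6 wild-type saline spots lie near background, which limits every Adamts13 difference from that group. With the normexp correction the difference between genotypes was 1.43 on saline and −0.00083 at 20 h of LPS, and the changes with LPS were 0.87 (6 h) and 0.65 (20 h) in wild type and −0.78 (20 h) in knockouts. In the deposited processed table the difference between genotypes was 1.90 on saline and −0.00283 at 20 h, and the changes in wild type were 1.17 and 0.90. The change from 6 to 20 h in knockouts passed the threshold with normexp (−0.62, adjusted p = 0.0298) and in the deposited table (−0.79, adjusted p = 0.0302), and its adjusted p ranged from 0.0298 to 0.187 over these and the other alternatives. The exact permutation test of this 1 gene gave p = 0.00952 for −1.47, unadjusted, beside an unadjusted p of 0.0192 from limma. Within scan date 1 the difference between genotypes was −0.36 at 6 h and −0.13 at 20 h. The value at 6 h sets only wild-type replicate 3 against knockout replicate 2. The causes were not tested.

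Leaving out 1 array at a time moved the difference between genotypes from 4.88 to 5.31 on saline, from 0.0882 to 1.46 at 6 h and from −0.133 to 0.303 at 20 h. It was below 0 at 20 h without wild-type replicate 2 (−0.133) or 6 (−0.0353) and without knockout replicate 4 (−0.117). The wild-type change at 6 h ranged from 3.33 to 4.71, the highest being without replicate 2, and the knockout change from 6 to 20 h from −1.66 to −1.3005 (adjusted p from 0.0523 to 0.226). Called genes between genotypes numbered 64 on saline, 242 at 6 h and 62 at 20 h. They ranged from 37 to 64, 77 to 186 and 33 to 85 with 1 array left out. With slide as a block they were 39, 62 and 28. At 6 h they were 116 with no filter and 7 with only the groups compared in the fit, where at 20 h they were 25. Without both libraries that stand apart they were 68 on saline, 257 at 6 h and 100 at 20 h.

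With the replicate block the Adamts13 difference between genotypes was 5.07 on saline, 1.103 at 6 h and 0.08 at 20 h, with adjusted p of 0.606 and 1.00, and the knockout change from 6 to 20 h was −1.36 (adjusted p = 0.147). The block gave 57, 177 and 44 called genes. Same-numbered arrays correlated in their deviations from the group means between −0.214 and 0.336, and 1 of 12 saline arrays, 4 of 8 at 6 h and 1 of 12 at 20 h correlated best with their own number in the other genotype.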
